A study of Rattus norvegicus with 18 samples.

Results

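The 43 genes described here are a set of cell cycle and proliferation genes listed by name and not by a threshold on their values. A gene counted as measured when the annotation gave at least 1 probe set carrying its symbol alone, and where there were several, the one with the highest average over the 18 arrays was used. This gave 40 measured genes, 14 of G1 and S phase and 26 of G2 and mitosis, out of 14217 genes measured in the series. Rrm2 and Hmgb2 were found only on probe sets that list several genes, Tpx2 was matched to no probe set, and no value is given for these 3.

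Expression was measured on Affymetrix arrays in the soleus, a postural calf muscle rich in slow fibres, of 9 male rats whose age and strain are not given in the sources used here. In SNX rats (n = 5) kidney failure had been produced by 5/6 nephrectomy, and sham rats (n = 4) had a mock operation. After 8 weeks the femoral artery of the right hindlimb was tied and cut out in all 9 animals, and both muscles were collected 24 hours later. The 4 groups are therefore SNX right (ligated), SNX left, sham right (ligated) and sham left, with 1 array per limb and rat. The left limb served as the unligated control within a rat, and all 9 rats analysed here had a ligation. The source labels of the arrays call every SNX muscle ischemic and every sham muscle nonischemic on both sides, which the design text contradicts, so groups are named by operation and side.

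In a resting cell the entry into S phase is held back by the retinoblastoma family, and D-type cyclins with their kinases lift this block so that E2F factors can switch on the genes of DNA replication. The MCM helicase is then loaded on replication origins, PCNA clamps the polymerases to DNA, and cyclins A and B with CDK1 later drive the cell through mitosis. In adult muscle the nuclei of the fibres have left the cycle, and the cells that can divide are satellite cells, endothelial cells, fibroblasts and leukocytes that enter the tissue.

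Values are log2 levels as deposited, so a difference of 1 is a doubling, and levels of different probe sets are not comparable with each other. Medians of the arrays ran from 3.22 to 3.37. Among them, 2 arrays of ligated muscle, from sham rat 17 (sham right 17) and SNX rat 49 (SNX right 49), were least like the rest: their mean correlations with the other arrays over all probe sets were 0.978 and 0.980, against 0.987 to 0.992 for the other 16 arrays. They are called the arrays that stood apart, and differences of the cell cycle genes that move by more than 1.5 times without them are given both ways. The mean over 8 slow fibre genes lay between 10.77 and 14.77 and that over 8 fast fibre genes between 14.75 and 15.05 on all arrays. Transcripts of muscle fibres were thus present throughout, but the slow fibre level varied between arrays. It was lowest on SNX right 20 (10.77) and sham left 17 (11.82), against 12.94 on SNX left 20 and 13.11 on sham right 17. In RNA from whole muscle, fewer cells of a type and less RNA per cell cannot be told apart. Unless a block for the rat is named, the p-values rest on the spread between arrays within groups and leave out the pairing of limbs. The number of arrays limits the precision.

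Many of the genes gave little signal. A gene was called dim when its mean over the 18 arrays lay below 3.30, the median of such means over all probe sets, and a low value can come from the probes as well as from the transcript. By this measure 27 of the 40 genes were dim, 21 of 26 in G2 and mitosis and 6 of 14 in G1 and S phase. The 13 others were Ccnd1, Ccne2, Mcm2, Mcm4, Mcm6, Mcm7, Pcna and Rrm1 of G1 and S phase, and Ccna2, Bub1, Stmn1, Mki67 and Top2a of G2 and mitosis. Mki67 passed this cut only through its values on the 2 arrays that stood apart. Its median over the other 16 arrays was 3.26, and that of Mcm6 was 3.21, both below the cut. Outside the 2 arrays that stood apart, 27 of the 40 genes, among them 22 of the 26 of G2 and mitosis, ranged by less than 0.5 over the other 16 arrays. Birc5, the inhibitor of apoptosis of the chromosomal passenger complex, spanned 1.89 to 1.94 on those 16 arrays, and Cdk1, the mitotic kinase, 1.91 to 2.01. At such levels a small true change may not be seen.

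**Figure D1:**
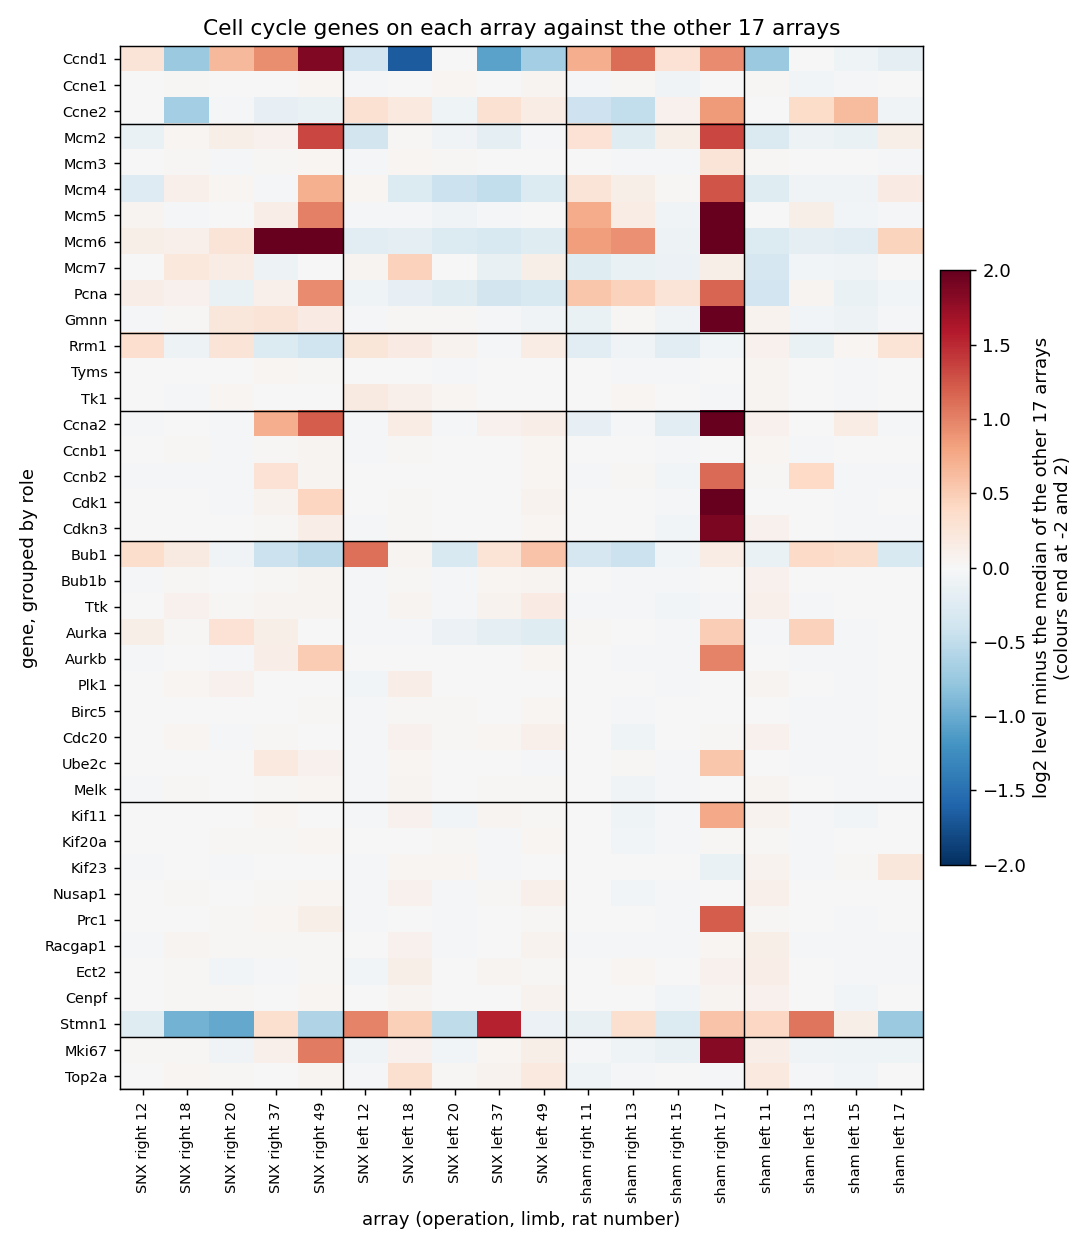
Level of each of the 40 measured cell cycle genes (rows, grouped by role) on each of the 18 arrays (columns, by operation, limb and rat number), as the log2 level minus the median of the other 17 arrays. The column of sham right 17 holds 12 genes more than 1 unit above the other arrays and that of SNX right 49 holds 6, while most G2 and mitosis rows are close to 0 elsewhere.

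Of the 43 genes, 34 had a promoter sequence in the RefSeq table of the rat assembly GRCr8, which runs from 250 bases before to 50 after the gene's start. They were searched on both strands for the CHR element TTTGAA, bound in resting cells by the complexes that silence mitotic genes, for CCAAT, the site of NF-Y, and for 4 forms of the E2F site, TTTGGCGC, TTTCGCGC, TTTCCCGC and TTTGCCGC. The 5 windows below are shown because they belong to the genes on which the array patterns turn: Pcna and Mcm6 of S phase, Cdk1 and Mki67, which were high on the arrays that stood apart, and Top2a, whose 2 probe sets differed there. Capitals mark the motif matches on either strand, and each window is written along its gene's strand.
Pcna, chr3:139955771-139956070, minus strand: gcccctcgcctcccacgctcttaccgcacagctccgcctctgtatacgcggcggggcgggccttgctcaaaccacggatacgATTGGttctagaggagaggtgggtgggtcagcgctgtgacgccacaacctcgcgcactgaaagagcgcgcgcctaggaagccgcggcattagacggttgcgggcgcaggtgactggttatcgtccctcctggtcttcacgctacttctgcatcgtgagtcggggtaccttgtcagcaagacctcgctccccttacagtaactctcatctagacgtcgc
Mcm6, chr13:42404303-42404602, minus strand: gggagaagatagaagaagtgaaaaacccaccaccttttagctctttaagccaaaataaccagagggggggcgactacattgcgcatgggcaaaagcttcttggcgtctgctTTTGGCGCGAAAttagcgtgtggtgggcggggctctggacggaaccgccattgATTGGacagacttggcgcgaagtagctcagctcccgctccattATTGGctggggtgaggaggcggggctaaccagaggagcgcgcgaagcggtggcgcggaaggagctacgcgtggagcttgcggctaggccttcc
Cdk1, chr20:19265043-19265342, plus strand: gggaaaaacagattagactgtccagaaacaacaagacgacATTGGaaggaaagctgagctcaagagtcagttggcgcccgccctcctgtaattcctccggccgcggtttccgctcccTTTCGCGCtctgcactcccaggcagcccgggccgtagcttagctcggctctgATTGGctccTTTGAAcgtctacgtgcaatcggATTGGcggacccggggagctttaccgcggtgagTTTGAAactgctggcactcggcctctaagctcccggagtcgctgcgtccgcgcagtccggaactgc
Mki67, chr1:199952544-199952843, minus strand: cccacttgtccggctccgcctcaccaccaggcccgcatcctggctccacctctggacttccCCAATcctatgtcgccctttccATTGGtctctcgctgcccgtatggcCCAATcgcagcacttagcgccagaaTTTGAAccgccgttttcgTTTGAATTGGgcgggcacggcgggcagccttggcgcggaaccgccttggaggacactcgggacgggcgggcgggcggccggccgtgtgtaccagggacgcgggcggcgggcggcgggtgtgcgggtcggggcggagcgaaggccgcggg
Top2a, chr10:84473044-84473343, minus strand: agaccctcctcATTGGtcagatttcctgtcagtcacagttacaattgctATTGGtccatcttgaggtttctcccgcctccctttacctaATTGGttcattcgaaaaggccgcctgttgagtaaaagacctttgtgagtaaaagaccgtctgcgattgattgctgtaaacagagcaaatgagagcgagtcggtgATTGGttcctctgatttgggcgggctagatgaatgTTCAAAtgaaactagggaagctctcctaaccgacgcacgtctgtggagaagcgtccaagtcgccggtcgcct

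The CHR letters were present in 16 of 23 promoters of G2 and mitosis genes (69.6%) and in 1 of 11 of G1 and S phase genes (9.09%), against 18.3% of the 33469 promoters in the table. An E2F form was present in 7 of 11 G1 and S phase promoters (63.6%) and in 2 of 23 of G2 and mitosis (8.7%), against 2.14% of all. CCAAT was found in 82.6% of the G2 and mitosis promoters and 63.6% of those of G1 and S phase, against 37.5% of all. In the Mcm6 window the TTTGGCGC match and a TTTCGCGC match on the opposite strand overlap. The Cdk1 window holds all 3 kinds of motif, the Mki67 and Top2a windows hold CHR and CCAAT, and the Pcna window holds CCAAT alone. These matches describe letters only and show no binding.

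The first question was whether the ligated right muscle differed from the left. Of the cyclins that open the cycle, Ccnd1, which encodes cyclin D1, was higher in the right limb of all 9 rats. Its levels were 7.07, 6.08, 7.46, 7.74 and 8.65 in SNX right (rats 12, 18, 20, 37 and 49), against 6.43, 5.15, 6.81, 5.74 and 6.14 in SNX left. They were 7.54, 7.93, 7.10 and 7.76 in sham right (rats 11, 13, 15 and 17), against 6.08, 6.82, 6.74 and 6.64 in sham left. In sham rats the right and left values did not overlap, and in SNX rats 1 right value, that of rat 18, lay within the range of the left. The right minus left differences ran from 0.37 in sham rat 15 to 2.51 in SNX rat 49.

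Over both operations Ccnd1 was higher in the right limb by 1.18 ± 0.30 (SE), or 2.26-fold, with an adjusted p of 0.0494 in limma's test. When the 2 muscles of an animal were treated as a pair (a random block for the rat, called the block from here on), the adjusted p was 0.0113, and with the rat as a fixed block it was 0.0391. The other 2 probe sets of Ccnd1 gave 1.11 and 1.10, also higher in 9 of 9 rats. Within each operation the difference was 1.34 ± 0.40 in SNX rats and 1.01 ± 0.44 in sham rats, with adjusted p values of 0.379 and 0.373, neither past the threshold of 0.05. Without sham right 17 and SNX right 49 the pooled difference was 0.99, with an adjusted p of 0.0898, or 0.0195 with the block. The unblocked call was lost when any of the sham rats 11, 13, 15 or 17 or the SNX rats 12, 37 or 49 was left out, with adjusted p from 0.0646 to 0.160, and the blocked call held in all 9 such fits.

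The cyclins E bind CDK2 at the start of S phase. Ccne2 was lower in the right limb of 7 of 9 rats, at 5.50, 4.83, 5.50, 5.36 and 5.38 in SNX right against 5.81, 5.69, 5.44, 5.81 and 5.65 in SNX left. It was 5.10, 5.03, 5.58 and 6.36 in sham right against 5.52, 5.87, 6.14 and 5.45 in sham left. Right was higher than left in SNX rat 20 and in sham rat 17 alone, and sham right 17 held the highest Ccne2 value of all arrays. The pooled difference of -0.30 ± 0.17 did not pass the test (limma adjusted p = 0.343, with the block 0.212). Without the 2 arrays that stood apart it was -0.44, with an adjusted p of 0.112, or 0.0270 with the block. Ccne1 was dim and ranged from 2.13 to 2.26 on all arrays.

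Pcna, the sliding clamp of the replicative polymerases, was the second gene past the threshold. Its levels were 9.95, 9.91, 9.76, 9.93 and 10.77 in SNX right, against 9.79, 9.72, 9.65, 9.51 and 9.57 in SNX left. They were 10.39, 10.28, 10.09 and 10.98 in sham right, against 9.49, 9.88, 9.75 and 9.82 in sham left. Every rat had more Pcna signal in its right muscle, the sham groups did not overlap, and the SNX groups overlapped through the right value of rat 20. The pooled difference was 0.56 ± 0.14, or 1.47-fold (limma adjusted p = 0.0440, with the block 0.0133). With the rat as a fixed block Pcna did not pass (adjusted p = 0.0634). In sham rats alone it was 0.70 ± 0.20 (adjusted p = 0.175, with the block 0.0609) and in SNX rats alone 0.41 ± 0.18 (adjusted p = 0.594, with the block 0.292).

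Sham right 17 and SNX right 49 held the highest Pcna values. Without both arrays the pooled difference of Pcna was smaller and still past the threshold, at 0.38, with an adjusted p of 0.0123 in limma's test and 0.00337 with the block. In sham rats alone it was then 0.51 and passed the threshold (adjusted p = 0.0391, with the block 0.00953), and in SNX rats alone it was 0.24 and did not. With both arrays kept, leaving out any rat other than SNX rat 20 took the unblocked adjusted p over 0.05, to between 0.0564 and 0.144. With the block, only the fit without sham rat 11 did so (0.0513).

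**Figure D2:**
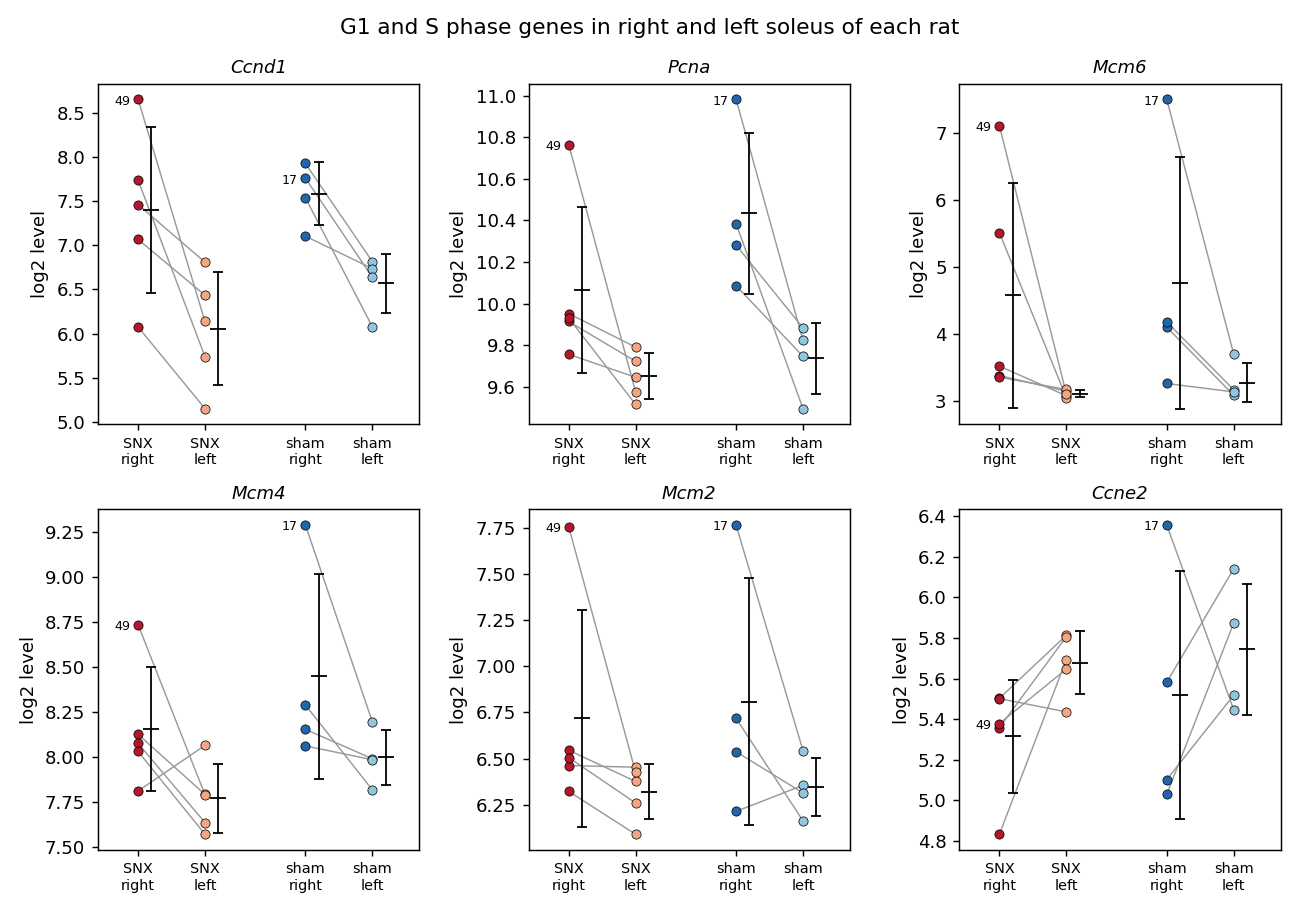
Log2 levels of 6 G1 and S phase genes in each muscle, with lines joining the right and left limb of a rat and bars giving the mean ± SD of each group (n = 5 SNX and n = 4 sham rats). Ccnd1, Pcna and Mcm6 lie higher in the right limb of all 9 rats, and the right muscles of sham rat 17 and SNX rat 49, marked by number, are the highest for Pcna, Mcm6, Mcm4 and Mcm2.

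The MCM genes encode the replicative helicase. Mcm6 was 3.38, 3.35, 3.52, 5.51 and 7.11 in SNX right against 3.14, 3.17, 3.07, 3.05 and 3.10 in SNX left, and 4.10, 4.18, 3.26 and 7.50 in sham right against 3.08, 3.16, 3.13 and 3.70 in sham left. It was higher in the right limb of 9 of 9 rats, but by amounts that ran from 0.13 in sham rat 15 to 2.46 in SNX rat 37 and 3.80 in sham rat 17, with SNX rat 49 higher still. The pooled difference of 1.48 ± 0.58 did not pass the test (limma adjusted p = 0.178, with the block 0.0755). Without the 2 arrays that stood apart it was 0.70 ± 0.28 (adjusted p = 0.265, with the block 0.115).

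Mcm4 was 7.81, 8.13, 8.08, 8.03 and 8.74 in SNX right against 8.06, 7.79, 7.63, 7.57 and 7.79 in SNX left, and 8.29, 8.15, 8.06 and 9.29 in sham right against 7.82, 7.99, 7.98 and 8.20 in sham left. Mcm2 spanned 6.32 to 7.76 in SNX right and 6.09 to 6.45 in SNX left, and 6.21 to 7.77 in sham right and 6.16 to 6.54 in sham left. Both were higher on the right in 8 of 9 rats, and so was the dim Mcm5. Their pooled differences were 0.42 ± 0.16 for Mcm4, 0.43 ± 0.21 for Mcm2 and 0.57 ± 0.29 for Mcm5, none past the threshold (adjusted p = 0.166, 0.278 and 0.299 in limma's test). They were, without the 2 arrays that stood apart, 0.21 for Mcm4, 0.14 for Mcm2 and 0.17 for Mcm5. Mcm7, at 8.84 to 9.63, was higher on the right in 4 of 9 rats, as was Mcm3, which was dim. Gmnn, which encodes the licensing inhibitor geminin, was higher in 7 of 9 rats, with a pooled difference of 0.31 ± 0.22 and a level of 4.79 on sham right 17 that compares with at most 3.07 elsewhere. The difference of Gmnn was 0.05 without the 2 arrays.

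Of the enzymes that supply nucleotides, Rrm1, the large subunit of ribonucleotide reductase, had a pooled difference of -0.16 ± 0.09 and was higher on the right in 3 of 9 rats. Tyms, thymidylate synthase, ranged from 2.32 to 2.42 and Tk1, thymidine kinase, from 2.78 to 2.99 over all arrays, and both were dim. Dimmer probe sets of Tk1 gave right minus left differences of -0.04 and 0.21 in sham rats, against -0.01 by the one used. The one used gave 0.0008 without the 2 arrays that stood apart.

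Over the whole set, 2 of 40 genes (Ccnd1 and Pcna) were called for right against left over both operations, with and without the block, and with the rat as a fixed block Ccnd1 alone was. Of all 31042 probe sets, 2.55% were called without the block and 9.05% with it, and the set's share is close to that background. An unadjusted p under 0.05 was found for 5 of the 40 genes (12.5%), against 18.9% of all probe sets. Right above left in 9 of 9 rats held for 3 of the 40 genes (Ccnd1, Mcm6 and Pcna) and for 2.85% of all probe sets. In SNX rats alone 0 of 40 were called (0.0451% of all probe sets without the block, 0.319% with it), and 4 had an unadjusted p under 0.05 (7.92% of all). In sham rats alone 0 of 40 were called (0.148% of all without and 1.8% with the block), and 3 had an unadjusted p under 0.05 (12.3% of all). Without the 2 arrays that stood apart, the count over both operations was 1 (Pcna) without the block and 3 (Ccnd1, Ccne2 and Pcna) with it. The shares of all probe sets in these fits were 2.11% and 6.12%, so these counts are near the background as well. In sham rats alone the count was then 1 (Pcna) with and without the block, against 0.59% of all without and 3.13% with it.

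The median right minus left difference over both operations was 0.17 for the 14 G1 and S phase genes and 0.00 for the 26 of G2 and mitosis, against -0.02 over all probe sets. By role it was 0.43 for the 8 genes of licensing and the replication fork, 0.00 for the 3 G1 and G1/S cyclins and -0.03 for the 3 genes of nucleotide supply. It was 0.24 for the 5 genes of mitotic cyclins and CDK1, -0.01 for the 10 mitotic kinases and checkpoint genes, -0.01 for the 9 spindle and cytokinesis genes and 0.12 for Mki67 and Top2a. Without the 2 arrays that stood apart the median was 0.03 for G1 and S phase and -0.02 for G2 and mitosis. It was then 0.16 for licensing and the replication fork, -0.01 for the mitotic cyclins and CDK1 and -0.05 for Mki67 and Top2a. The difference turned its sign without these arrays for 8 of the 40 genes, among them Mki67, Ccna2, Ccnb2, Cdkn3, Aurkb and Kif11.

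**Figure D3:**
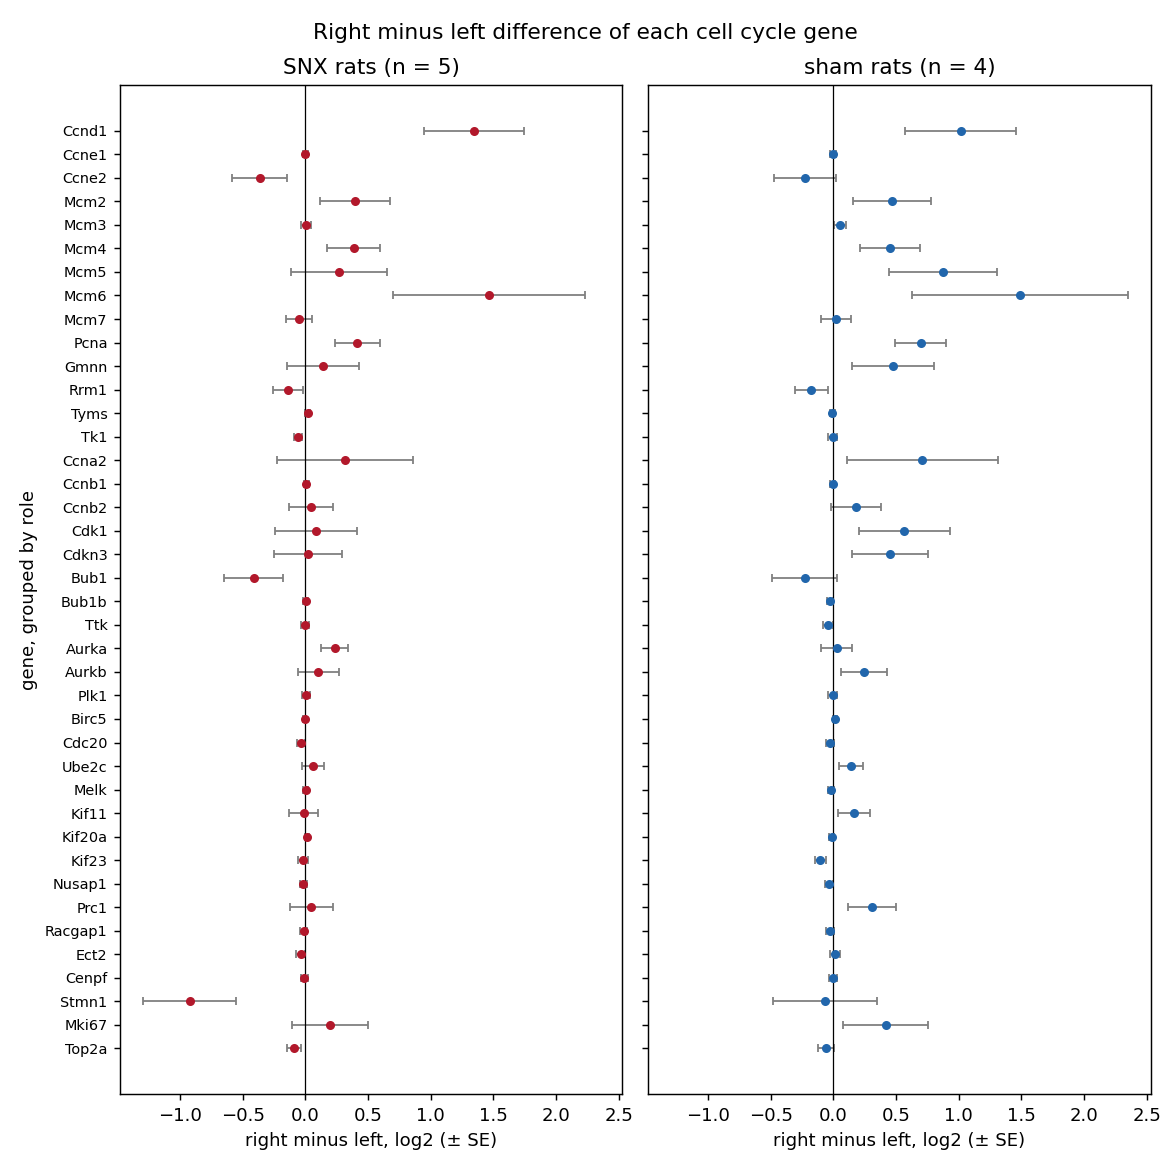
Right minus left difference of each measured cell cycle gene on the log2 scale, with its standard error from the fit over all arrays, in SNX rats (left panel, n = 5) and sham rats (right panel, n = 4). Ccnd1 and Mcm6 lie farthest to the right in both panels, Stmn1 is lowest in SNX rats, and most G2 and mitosis genes sit at 0 with short error bars.

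Among the genes of G2 and mitosis none was called in any comparison. Mki67, which coats mitotic chromosomes and is the usual marker of cycling cells, was 3.30, 3.31, 3.24, 3.38 and 4.32 in SNX right against 3.23, 3.36, 3.25, 3.32 and 3.39 in SNX left. In sham rats it was 3.28, 3.22, 3.18 and 5.09 on the right against 3.41, 3.23, 3.22 and 3.22 on the left. Apart from SNX right 49 and sham right 17, all arrays lay between 3.18 and 3.41. The pooled difference was 0.31 ± 0.23, and the right limb was higher in 4 of 9 rats (limma adjusted p = 0.460). Without those 2 arrays the pooled difference was -0.03 ± 0.04 (adjusted p = 0.751).

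Cdk1 was 4.19 on sham right 17 and 2.37 on SNX right 49, against 1.91 to 2.01 on the other 16 arrays. Its partner Ccna2, cyclin A2, was 6.85 and 4.62 on these arrays and 4.12 on SNX right 37, with 3.20 to 3.56 on all others. Cdkn3, a phosphatase that acts on CDKs, was 4.13 on sham right 17 and 2.38 on SNX right 49, and 2.20 to 2.34 elsewhere. Ccnb2, cyclin B2, was 3.40 on sham right 17 and at most 2.67 elsewhere, while Ccnb1, cyclin B1, stayed between 2.39 and 2.47 on all arrays. The cyclins and CDK1 were thus high together on sham right 17, with Ccnb1 as the exception.

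Of the spindle and cytokinesis genes, Prc1, which bundles microtubules of the central spindle, was 3.54 on sham right 17, 2.44 on SNX right 49 and 2.29 to 2.36 on the other arrays. Kif11, the kinesin that separates spindle poles, was 3.10 on sham right 17 and 2.26 to 2.43 on the other arrays. By the probe set used, the remaining dim genes of this role spanned at most 0.35 over all 18 arrays. They were Kif20a and Kif23, kinesins of cytokinesis, and Nusap1, which binds spindle microtubules. The others were Racgap1 and Ect2, which control RhoA at the cleavage furrow, and Cenpf, a kinetochore protein. Second probe sets differed from those used in right minus left of sham rats. They gave 0.19 for Nusap1 (used -0.04) and 0.17 for Racgap1 (used -0.02, or -0.04 without the 2 arrays that stood apart). For Kif23 the second gave 0.03 (used -0.10) and for Kif11 -0.02 (used 0.16, or -0.04 without the 2 arrays). By the probe set used, right minus left of Kif11 was 0.75 in sham rat 17. It was -0.07, -0.05 and 0.02 in sham rats 11, 13 and 15. Stmn1, stathmin, which destabilises microtubules, was 6.76, 6.06, 5.98, 7.20 and 6.39 in SNX right against 7.87, 7.35, 6.49, 8.42 and 6.88 in SNX left. All 5 SNX rats had less of it on the right, with overlapping groups. In sham rats it spanned 6.73 to 7.46 on the right and 6.26 to 7.94 on the left, where rats 11, 13 and 15 had less and rat 17 more on the right. The difference was -0.92 ± 0.37 in SNX rats (limma adjusted p = 0.544, with the block 0.214) and -0.07 ± 0.42 in sham rats (adjusted p = 0.939), or -0.20 in sham rats without sham right 17.

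Among the mitotic kinases and checkpoint genes, Aurkb, the Aurora kinase of the passenger complex, was 3.62 on sham right 17 and 3.14 on SNX right 49, against 2.59 to 2.76 on the other arrays. Ube2c, the E2 enzyme of the anaphase-promoting complex, was 2.64 on sham right 17 and at most 2.29 on the others. Aurka, the Aurora kinase of the centrosome, was highest on sham right 17 as well, at 2.72, with 2.69 on sham left 13 and 2.00 to 2.52 on the rest. It was higher on the right in 8 of 9 rats, with a pooled difference of 0.13 ± 0.08, or 0.08 without the 2 arrays that stood apart, that did not pass the test. Plk1, the polo kinase, Birc5, the checkpoint kinases Bub1b and Ttk, Cdc20, which activates the anaphase-promoting complex, and the kinase Melk varied little. By the probe set used, each spanned at most 0.21 over all 18 arrays, the 2 that stood apart included. Bub1, a checkpoint kinase and the 1 gene of this role that was not dim, was highest on SNX left 12 (6.10) and lowest on SNX right 49 (4.53).

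Top2a, topoisomerase II alpha, which untangles the chromosomes of dividing cells, was between 3.33 and 3.72 on all arrays by its brighter probe set. This probe set gave 3.40 on sham right 17 and 3.45 on SNX right 49, within the range of the others, and its highest value was on SNX left 18. The second probe set was dimmer, with a mean of 2.95, and gave 3.57 on sham right 17 and 2.95 on SNX right 49, against 2.84 to 3.04 on the other 16 arrays. The probe sets of Top2a thus disagree on sham right 17. Their pooled right minus left differences were -0.07 and 0.07, each higher on the right in 3 of 9 rats.

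**Figure D4:**
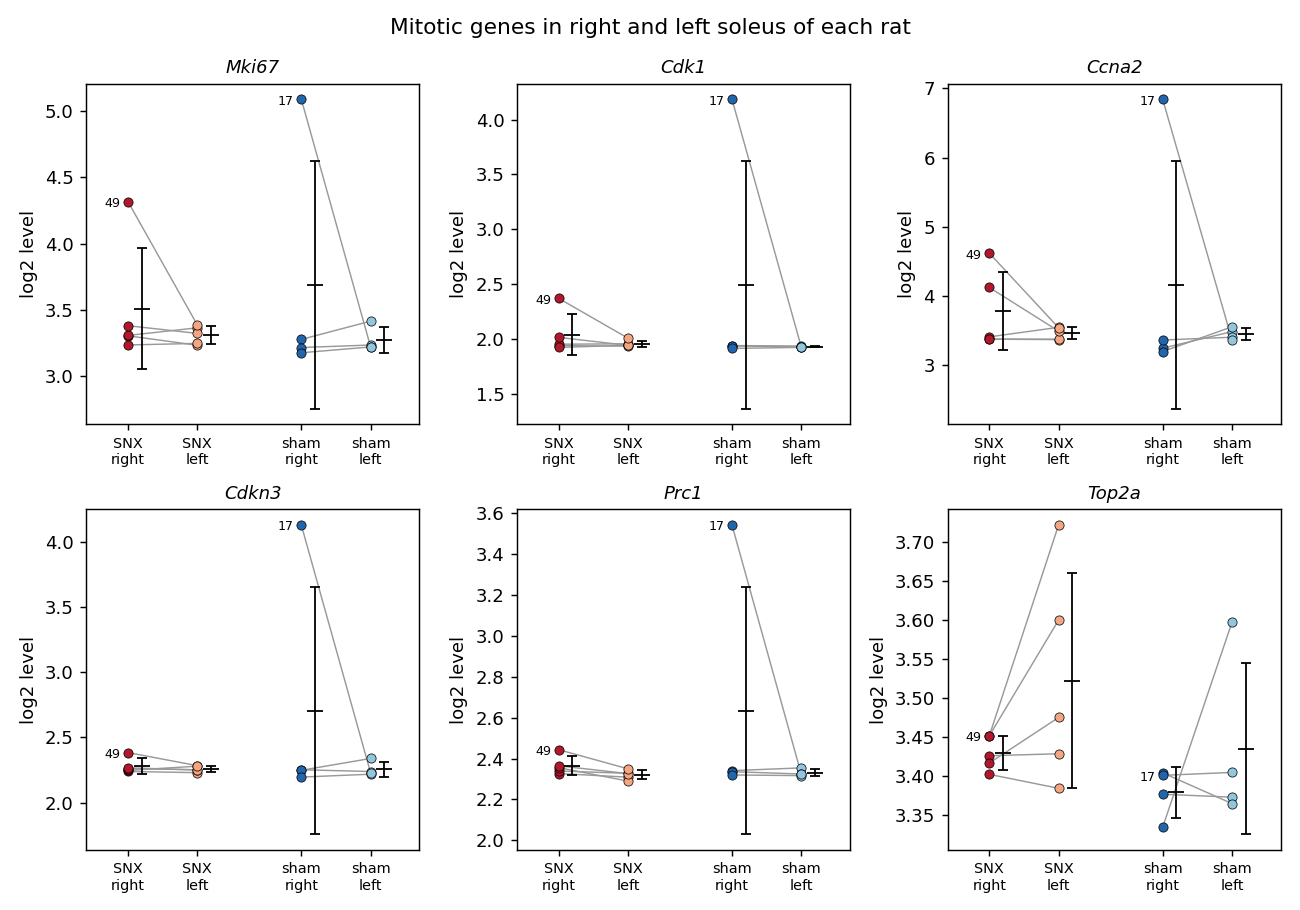
Log2 levels of 6 genes of G2 and mitosis in each muscle, with lines joining the right and left limb of a rat and bars giving the mean ± SD of each group (n = 5 SNX and n = 4 sham rats). Sham right 17 lies above every other array for Mki67, Cdk1, Ccna2, Cdkn3 and Prc1, SNX right 49 is second for these genes, and both lie within the range of the other arrays on the Top2a probe set plotted.

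The level of a gene on 1 array was also set against the median of the other 17 arrays. On sham right 17, 12 of 40 genes lay more than 1 log2 unit above it (Mcm2, Mcm4, Mcm5, Mcm6, Pcna, Gmnn, Ccna2, Ccnb2, Cdk1, Cdkn3, Prc1 and Mki67), against 5.21% of all probe sets. On SNX right 49, 6 of 40 did so (Ccnd1, Mcm2, Mcm5, Mcm6, Ccna2 and Mki67), against 4.73% of all, and 5 of these are shared with sham right 17. On each of the other 16 arrays at most 1 gene did, against 0.377% to 2.97% of all probe sets. Sham right 17 held the highest value of 18 of the 40 genes, against 8.23% of all probe sets. The left muscles of the same 2 rats had none of the 40 genes more than 1 unit above the other arrays. Of all probe sets, 1.07% lay that far above on sham left 17 and 0.648% on SNX left 49. At such shares a count of 0 is near the background. These counts describe single arrays and carry no test.

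**Figure D5:**
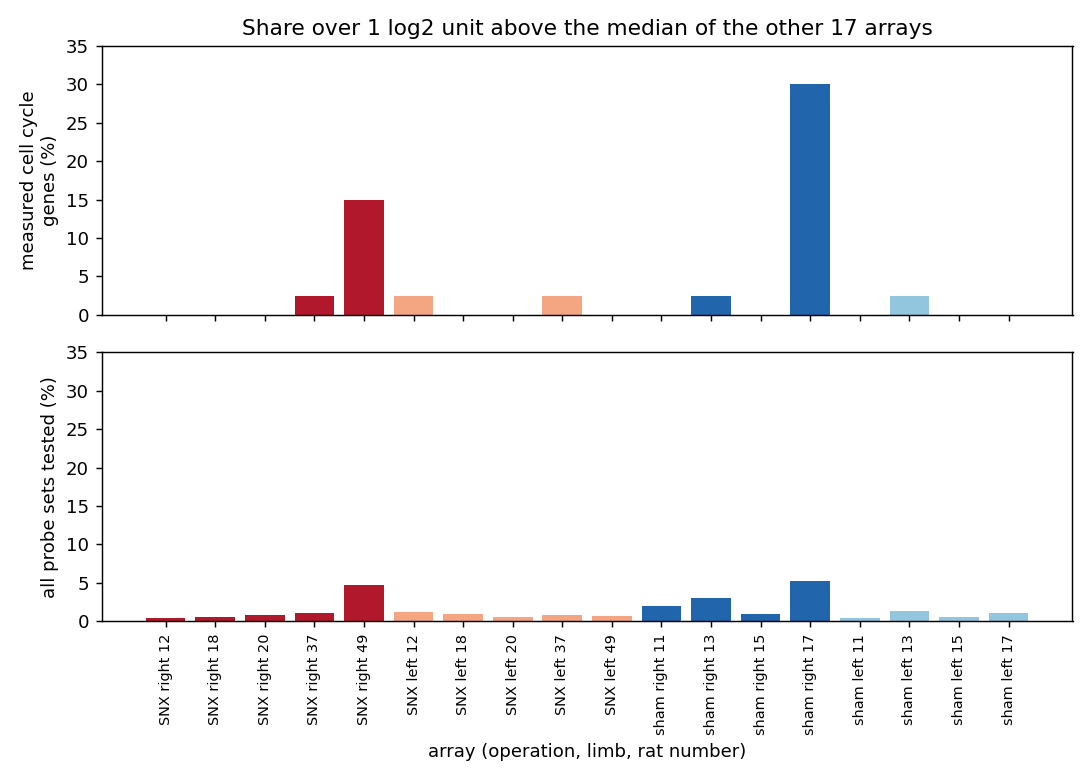
Share of the 40 measured cell cycle genes (upper panel) and of all 31042 probe sets (lower panel) that lay more than 1 log2 unit above the median of the other 17 arrays, by array. Sham right 17 and SNX right 49 have the tallest bars in both panels, with 12 and 6 of the 40 genes.

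The mean level of macrophage transcripts was highest on these 2 arrays. For the counts that follow, 5.21% of all probe sets lay more than 1 unit above the other arrays on sham right 17. On SNX right 49 this share was 4.73%. The mean level of 12 macrophage genes was 8.74 on sham right 17 and 8.07 on SNX right 49, against 5.16 to 7.17 on the other 16 arrays, with 10 and 7 of the 12 genes more than 1 unit above the other arrays. Their summed signal on the log2 scale ran from 10.86 to 13.89 in SNX right and from 10.29 to 11.17 in SNX left, and from 12.20 to 14.59 in sham right and from 11.42 to 12.54 in sham left. The mean of 7 lymphocyte genes, all of them dim, was 3.36 and 3.05 against 2.39 to 2.52, with 1 of the 7 genes (Cd8a) more than 1 unit above the other arrays on each. That of 6 neutrophil genes, 4 of them dim, was 4.79 and 4.06 against 3.02 to 4.15, with 3 and 2 of the 6 genes that far above. On SNX right 49 the neutrophil mean thus lay within the range of the other arrays. The mean of 6 satellite cell and myoblast genes was 5.81 and 5.87, within 5.58 to 6.35 on the other arrays. Of these genes Myog alone lay that far above, on SNX right 49. The endothelial mean also lay within its range. For 8 fibroblast genes the mean was 11.12 and 10.64, within 9.33 to 11.24 on the other arrays. On sham right 17, 3 of the 8 (Pdgfra, Dcn and Lum) lay that far above, and on SNX right 49 1 (Pdgfra). All 8 were higher on average in the right limb over both operations, by a median of 0.51. Over both operations all 12 macrophage genes were higher on average in the right limb, with a median difference of 0.96. Limma called 1 of the macrophage genes (Cd14) without the block and 7 with it, against 2.55% and 9.05% of all probe sets. Of these 7, Cd14 alone passed with the rat as a fixed block. Itgam was the 1 dim gene of that list. The part of leukocytes in the cell cycle values was not tested.

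Further genes of the pathway were counted on the same 2 arrays. Of 31 further S phase genes, 6 on sham right 17 (19.4%) and 5 on SNX right 49 (16.1%) lay more than 1 unit above the other arrays, against 5.21% and 4.73% of all probe sets. Of 39 further mitotic genes 4 (10.3%) and 3 (7.69%) did so, and most genes of both lists did not. Uhrf1, which keeps DNA methylation through replication, was 6.50 and 5.66 against 3.06 to 4.21 on the other 16 arrays. Cks2, a small subunit that binds CDK1, was 5.69 and 4.79 against 2.30 to 3.37. Smc2, a condensin subunit, was 7.63 and 7.73 against 5.68 to 6.60.

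Regulators that act upstream of the set were counted from lists of further genes. Of 23 G1 regulators and E2F family genes, 2 were called higher and 0 lower on the right over both operations without the block. With it 2 were called higher and 2 lower. The shares called over all probe sets were 2.55% without the block and 9.05% with it. Myc, a transcription factor that drives cells into the cycle, was 7.41, 6.23, 6.71, 6.80 and 8.44 in SNX right against 6.54, 4.73, 5.42, 4.05 and 4.34 in SNX left, and 8.27, 8.78, 7.81 and 10.29 in sham right against 5.24, 6.37, 6.24 and 6.60 in sham left. It was higher in the right limb of 9 of 9 rats, by 2.39 ± 0.41 (limma adjusted p = 0.0104, with the block 0.00190), with no overlap of the sham groups and an overlap of the SNX groups. E2f8, an E2F repressor that is itself an E2F target, spanned 3.35 to 6.69 in SNX right and 2.54 to 2.76 in SNX left, and 4.88 to 7.25 in sham right and 2.66 to 5.31 in sham left. It was higher in 9 of 9 rats by 2.10 ± 0.46 (adjusted p = 0.0306, with the block 0.00615). Rbl2, a retinoblastoma family member of resting cells, and Tfdp2, an E2F partner, were called lower with the block alone, with differences of -0.60 ± 0.18 and -0.78 ± 0.23 (adjusted p = 0.0443 and 0.0440). Neither passed with the rat as a fixed block (adjusted p = 0.117 and 0.107).

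Of 17 CDK inhibitors and p53 targets, 3 were called higher on the right without the block and 5 higher and 1 lower with it. Over all probe sets 2.55% were called without the block and 9.05% with it. Sesn2, a stress-induced regulator of growth signalling, was higher by 1.42 ± 0.25, Gadd45b, a stress sensor that can arrest the cycle, by 1.32 ± 0.29, and Btg1, an antiproliferative gene, by 0.49 ± 0.10 (limma adjusted p = 0.0121, 0.0295 and 0.0211). The right limb was higher in 8 of 9 rats for Sesn2 and Btg1 and in 7 of 9 for Gadd45b. Mean Gadd45b was 7.19 in SNX right against 6.50 in SNX left, and 8.36 in sham right against 6.40 in sham left. None of the CDK inhibitors of the Cdkn1 family passed the test: the differences were 0.43 ± 0.30 for Cdkn1a, -0.18 ± 0.08 for Cdkn1b and -0.22 ± 0.13 for Cdkn1c. Of 31 further S phase genes none was called without the block (limma), and with it Ung, uracil DNA glycosylase, was called higher, with a difference of 1.37 ± 0.35, and Dut, the dUTPase, lower, with one of -0.28 ± 0.07, in 9 of 9 rats each (adjusted p = 0.0276 and 0.0247). With the rat as a fixed block neither passed (adjusted p = 0.0676 and 0.0524). Of 39 further mitotic genes none was called with or without the block, and 29 of them were dim.

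The second question was whether SNX and sham rats differed. In the right limb 0 of the 40 genes and 0% of all probe sets were called, with and without the block, and none of the 40 had an unadjusted p under 0.05 in limma's test. The lowest p belonged to Pcna, at 10.06 ± 0.40 in SNX right and 10.43 ± 0.39 in sham right (SD, n = 5 and 4), a difference of -0.37 ± 0.19 (adjusted p = 0.498). Ccnd1 was 7.40 ± 0.94 in SNX right and 7.58 ± 0.36 in sham right, and Mki67 was 3.51 ± 0.45 in SNX right and 3.69 ± 0.93 in sham right, differences within the spread between rats. Ttk and Kif20a, a checkpoint kinase and a cytokinesis kinesin, came next by p, with differences of 0.07 and 0.04. The median difference was -0.14 for the G1 and S phase genes and 0.01 for those of G2 and mitosis, against 0.03 over all probe sets. Each of the groups compared here holds 1 of the arrays that stood apart, and without them Pcna differed by -0.36 (adjusted p = 0.378). The G1 and S phase median was then 0.02, with its sign turned, that of G2 and mitosis 0.04, and 16 of the 40 genes changed sign. Ccnd1 differed by -0.18 with these arrays and by -0.44 without them, and Mki67 by -0.18 and by 0.08.

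In the left limb 0 of 40 genes were called, against 0.00644% of all probe sets with and without the block, and none had an unadjusted p under 0.05. Mcm7 was 0.21 ± 0.11 higher in SNX left than in sham left, Aurka differed by -0.22 ± 0.11 and Birc5 by 0.03 ± 0.01, and these had the 3 lowest p values (limma adjusted p = 0.852, 0.852 and 0.862). Ccnd1 was 6.06 ± 0.64 in SNX left and 6.57 ± 0.33 in sham left (SD), and Pcna 9.65 ± 0.11 in SNX left and 9.74 ± 0.17 in sham left.

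The difference between the right minus left changes of SNX and sham rats was called for 0 of 40 genes and 0% of all probe sets, with and without the block, and no gene of the set had an unadjusted p under 0.05 in limma's test. The change in SNX rats minus that in sham rats was 0.33 ± 0.59 for Ccnd1, -0.28 ± 0.27 for Pcna and -0.02 ± 1.15 for Mcm6. Stmn1 had the lowest p, at -0.85 ± 0.56, followed by Kif23 and Aurka at 0.08 ± 0.06 and 0.21 ± 0.16. Without the 2 arrays that stood apart it was 0.08 for Ccnd1, -0.28 for Pcna, 0.26 for Mcm6 and -0.70 for Stmn1, and 17 of the 40 genes changed sign. Kif23 and Aurka were then at 0.05 and 0.35.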

How the data were processed

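The table deposited by the authors holds normalized log2 values, 1 column per array. The submitters' processing notes list RMA, GCRMA and Partek without saying which made the table, and the background correction, which affects dim probe sets most, is therefore unknown here. Biotinylated cRNA was hybridised, per the labels' protocols. After 57 control probe sets were left out, 31042 were tested, of which 20826 list 1 gene, 436 several and 9780 none. Symbols came from the platform annotation, updated to RefSeq GRCr8, which also gave the promoters.

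Group means were fitted over 18 arrays with limma 3.58.1 (lmFit, eBayes) in R 4.3.3, with 14 residual degrees of freedom, two-sided p-values and Benjamini-Hochberg adjustment over all 31042 probe sets at 0.05. The fit was tested on simulated data. Limbs of 1 rat are paired by animal, and in 7 of 9 rats the deviations of both limbs from their group means had a correlation over 0.1. The blocked fit used duplicateCorrelation (consensus correlation 0.297).

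The genes, the further lists and the alternatives were chosen with earlier results of these data known. Values are printed for genes past the threshold in a comparison, for the 3 with the lowest p where none passed, and for Mki67, Top2a, Cdk1, Pcna, Ccnd1 and Stmn1. From the further lists, some of those past the threshold over both operations are named, up to 4 per list, with the Cdkn1 family. Within 1 operation, the block gave calls for Kdr in SNX rats. In sham rats it gave calls for Gadd45b, Btg1, Sesn2, E2f8, Myc, Pecam1 and Kdr. The other genes and per-array values that are given were singled out after their values were seen.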

Additional observations from a re-analysis of the deposited data

Results flagged for a closer look

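In each group of 4 or 5 arrays the highest or lowest value of a gene was set against its nearest neighbour by Dixon's test. Of 160 such groups (40 genes in 4 groups), 32 held a value that stood apart. The nominal rate of the test is about 1 in 20, but the genes share the same arrays, so the groups are not independent. No rate over all probe sets is given here, so the count is not a result about these genes. The right limb array of sham rat 17 accounted for 13, that of SNX rat 49 for 6 and the other arrays for 13.

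On sham right 17 the genes that stood above the other 3 sham right arrays were Ccna2 (6.85, next value 3.36), Mki67 (5.09, next 3.28), Gmnn (4.79, next 2.83), Cdk1 (4.19, next 1.94) and Cdkn3 (4.13, next 2.25). With smaller gaps came Aurkb (3.62), Prc1 (3.54), Ccnb2 (3.40), Kif11 (3.10), Aurka (2.72), Ube2c (2.64) and Mcm3 (2.34). Kif23 alone stood below the others there, at 2.59 with the next value at 2.71. On SNX right 49 the genes were Pcna (10.77, next 9.95), Mcm2 (7.76, next 6.54), Mki67 (4.32, next 3.38), Mcm5 (3.60, next 2.72), Cdkn3 (2.38) and Cdk1 (2.37). Macrophage gene levels were highest on these same arrays, and the part of those cells in the values was not tested.

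On the other arrays the gaps were small, and most of the genes were dim. Sham left 11 was the highest of its group for Mki67 (3.41), Ect2 (3.06), Racgap1 (2.63), Bub1b (2.48), Nusap1 (2.47), Tyms (2.42) and Melk (2.17). Sham left 13 was highest for Aurka (2.69) and Ccnb2 (2.67), sham left 17 for Mcm6 (3.70) and SNX left 49 for Ccnb2 (2.31). SNX right 18 was lowest for Ccne2 (4.83) and sham right 15 for Ttk (2.64).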

How the results depend on the processing

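Of the gene differences recomputed under every alternative, those of Mki67, Mcm6, Stmn1 and Ccnd1 changed sign in some comparisons, and none of these was past the threshold. Without the 2 right limb arrays that stood apart, Mki67 was -0.00391 for right against left in SNX rats, -0.0497 in sham rats and -0.0268 over both, and 0.0837 for SNX against sham right. With the rat as a random replicate block as well, it was -0.0557 in sham rats, -0.0265 over both and 0.10 for SNX against sham right. The difference of the changes of Mcm6 was 0.0355 after renewed quantile normalization, 0.26 without the 2 arrays and 0.21 without them and with the block. Leaving out 1 rat at a time gave it -0.66 to 0.75. The same step gave -0.49 to 0.16 for Stmn1 and -0.0669 to 0.60 for Mki67 in right against left of sham rats, and -0.50 to 0.15 for Ccnd1 and -0.38 to 0.29 for Mki67 in SNX against sham right. Over all 40 genes, 8 changed sign without the 2 arrays for right against left over both operations. The median differences of the whole set lie near 0, and in each of the 6 comparisons their sign changed under at least 2 alternatives (centring, renewed quantile normalization, a left-out rat or the left-out arrays that stood apart), and with dim probe sets kept the medians stayed between -0.07 and 0.05. The count of 2 genes called for right against left over both operations was 2 with the rat as a random replicate block. It was 1 with the rat as a fixed block (Ccnd1), and 1 (Pcna) with arrays centred on their median, with arrays quantile normalized again, with the mean of all probe sets of a gene, and without the 2 right limb arrays that stood apart. The shares of all probe sets called in these fits with 1 gene ran from 2.11% to 3.51%. Leaving out 1 rat at a time gave 0 to 3 genes, counting the fits with and without the block, against 0.493% to 10.6% of all probe sets. Over 17 alternatives, with the random block used only on all arrays, Ccnd1 was called in 6 and Pcna in 8. Their adjusted p in limma ran from 0.0113 (random block) to 0.160 for Ccnd1 and from 0.0123 to 0.144 for Pcna. When blocked fits without 1 rat or without the 2 arrays were added, Ccnd1 kept its call in 16 and lost it in 11. Pcna then kept its call in 17 and lost it in 10, with a lowest adjusted p of 0.00337. For right against left in sham rats the count was 1 in place of 0 without the 2 arrays that stood apart, with and without the block. The shares of all probe sets were then 3.13% with and 0.59% without the block. When dim probe sets were left out, 13 of the 40 genes remained and the median difference moved by that construction, to 0.20 for right against left in SNX rats, 0.42 in sham rats, 0.31 over both, and -0.18 for SNX against sham rats in the right limb. For right against left in SNX rats, for SNX against sham rats in either limb and for the difference of the changes, the count stayed at 0 in every alternative run. Signal over background limits what the 27 dim genes can show.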

Other observations

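Of 8 measured endothelial genes, 2 were called higher on the right over both operations without the block (Kdr and Pecam1). With it 3 were called higher (Kdr, Pecam1 and Cldn5) and 1 lower (Tek). Over all probe sets 2.55% were called without the block and 9.05% with it. The median difference of the list was 0.26. With the rat as a fixed block 3 were called (Pecam1, Kdr and Tek). Kdr, a receptor for vascular endothelial growth factor, was higher on the right in 9 of 9 rats, by 0.85 ± 0.15 over both operations (limma adjusted p = 0.0104), and Pecam1, an adhesion molecule of vessel walls, in 9 of 9 rats by 0.34 ± 0.08 (adjusted p = 0.0421). All 9 rats had less Tek, the angiopoietin receptor from the same list, in the right muscle, with a difference of -0.58 ± 0.15 (adjusted p = 0.0502, with the rat as a random block 0.0108). Cd14, a surface receptor of monocytes and macrophages, was higher in 9 of 9 rats by 2.36 ± 0.51 (adjusted p = 0.0290).

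Stmn1 had its lower value in the right limb in 8 of 9 rats. Sham rat 17 was the exception, with a right minus left difference of 1.20, while the other 8 rats lay between -1.29 and -0.27.

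Of the cell cycle promoters with a sequence, the CHR letters were present in 6 of the 10 genes that lay more than 1 unit above the other arrays on sham right 17 and in 11 of the 24 others. The 24 include Hmgb2, which holds the CHR letters and has no measured value. An E2F form was present in 5 of the 10 and in 4 of the 24. These counts describe letters, and the genes were grouped by their values on 1 array.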
